A study of Arabidopsis thaliana with 8 samples.

Results

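The Aux/IAA and GH3 genes were described here as a set of 35 genes, 29 encoding Aux/IAA proteins and 6 encoding GH3 enzymes (GH3.1, GH3.2, GH3.3, GH3.5, GH3.6 and GH3.17), listed by locus identifier as members of these families. The rule uses no measured value, although the families were picked with earlier results of these data known. They are 35 of the 37336 genes in the deposited tables, and 29 of the 35 had enough counts to be tested. The RNA came from above-ground tissue of Arabidopsis thaliana, collected after 6 weeks of growth at 21 °C in days of 8 h of light and 16 h of dark. PAT1, PATH1 and PATH2 are related proteins that promote removal of the mRNA cap, and the study asked which genes act in the developmental programs that depend on them. Every genotype carries summ2-8, a mutation of the immune receptor gene SUMM2, so the control is summ2-8 and no wild type is among the 8 genotypes. The 3 single combinations are pat1-1summ2-8, path1-4summ2-8 and path2-1summ2-8, the 3 double combinations are pat1-1path1-4summ2-8, pat1-1path2-1summ2-8 and path1-4path2-1summ2-8, and the triple combination is pat1-1path1-4path2-1summ2-8. They are named below without summ2-8. Each genotype has 3 biological replicate libraries, 24 in all. The labels give 2 pot sizes without assigning them to genotypes, and they do not say what kind of mutation each allele is or whether a library came from 1 plant or several.

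Auxin acts by bringing Aux/IAA proteins to the TIR1/AFB receptors, which mark them for degradation. Aux/IAA proteins otherwise hold the auxin response factors (ARFs) in check together with TOPLESS corepressors, so their loss lets ARFs act on target genes. Many Aux/IAA and GH3 genes are themselves such targets: the Aux/IAA proteins feed back on the response, and the GH3 enzymes lower free auxin by joining it to amino acids.

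The promoters of 5 members are shown because these members carry most of the results: IAA29, GH3.3 and IAA19 had the lowest triple to control ratios among the tested members, IAA1 was low in 2 of the genotypes, and IAA7 was higher with pat1-1. Each sequence is the 300 bases before the annotated gene start in the RefSeq annotation of assembly TAIR10.1, written 5′ to 3′ on the gene's strand. Capitals mark the auxin response elements TGTCTC and TGTCGG and the G-box CACGTG, each searched on both strands, so a match on the other strand reads GAGACA or CCGACA. The windows are chr4:15583032-15583331 (+) for IAA29, chr3:5263701-5264000 (+) for IAA19, chr2:9866563-9866862 (-) for GH3.3, chr4:8360696-8360995 (+) for IAA1 and chr3:8194306-8194605 (+) for IAA7.
IAA29: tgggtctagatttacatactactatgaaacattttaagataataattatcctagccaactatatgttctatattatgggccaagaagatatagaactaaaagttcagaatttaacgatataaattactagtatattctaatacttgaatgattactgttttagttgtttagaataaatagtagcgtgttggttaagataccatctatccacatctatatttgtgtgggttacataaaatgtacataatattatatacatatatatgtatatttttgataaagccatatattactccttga
IAA19: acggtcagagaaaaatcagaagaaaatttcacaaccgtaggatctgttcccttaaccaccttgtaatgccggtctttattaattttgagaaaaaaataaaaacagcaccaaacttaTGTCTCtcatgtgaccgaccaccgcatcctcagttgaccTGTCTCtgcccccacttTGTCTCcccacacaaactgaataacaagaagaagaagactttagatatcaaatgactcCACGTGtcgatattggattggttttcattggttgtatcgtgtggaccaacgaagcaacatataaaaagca
GH3.3: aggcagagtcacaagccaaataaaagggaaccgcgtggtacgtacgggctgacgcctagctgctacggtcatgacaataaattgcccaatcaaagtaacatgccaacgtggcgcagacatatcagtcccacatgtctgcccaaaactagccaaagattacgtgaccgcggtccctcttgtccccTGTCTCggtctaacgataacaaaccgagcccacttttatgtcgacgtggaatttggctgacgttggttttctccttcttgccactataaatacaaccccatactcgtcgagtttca
IAA1: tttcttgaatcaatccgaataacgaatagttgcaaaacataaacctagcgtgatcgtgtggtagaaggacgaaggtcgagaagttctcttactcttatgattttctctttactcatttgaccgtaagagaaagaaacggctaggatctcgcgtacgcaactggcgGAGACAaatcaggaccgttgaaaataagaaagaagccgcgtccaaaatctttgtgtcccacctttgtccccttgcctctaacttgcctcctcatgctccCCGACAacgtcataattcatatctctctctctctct
IAA7: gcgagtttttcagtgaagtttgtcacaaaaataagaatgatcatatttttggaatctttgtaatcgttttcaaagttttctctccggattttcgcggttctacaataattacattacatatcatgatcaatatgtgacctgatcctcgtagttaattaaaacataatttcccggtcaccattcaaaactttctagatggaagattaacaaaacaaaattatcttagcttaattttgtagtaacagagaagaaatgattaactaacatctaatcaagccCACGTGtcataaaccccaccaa

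The window of IAA19 holds 3 copies of TGTCTC and 1 G-box. That of GH3.3 holds 1 TGTCTC, that of IAA1 holds 1 TGTCTC and 1 TGTCGG on the other strand, that of IAA7 holds 1 G-box, and that of IAA29 holds none of these. TGTCTC was present in the windows of 14 of the 35 members and in 12.97% of 27443 promoters of the same length, TGTCGG in 6 members and 4.91%, and CACGTG in 5 members and 7.09%. At least 1 of the auxin elements was present in 17 members and in 17.25% of all promoters. Set beside the calls in the triple combination (edgeR adjusted p below 0.05), they were present in 8 of the 11 members that fell, 1 of the 3 that rose, 6 of the 15 not called and 2 of the 6 not tested. These matches are letters in a window and not measured sites.

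Library totals ran from 14187145 to 39180748 counts, and replicates correlated at 0.981 to 0.994 on the log2 scale. The 6 libraries of the doubles with path2-1 (pat1-1path2-1 and path1-4path2-1) stood apart from the other 18 on the second principal component (14.5% of the variance), so counts of changed members were also taken without them where a comparison does not need them. The PAT1 locus AT1G79090 was at 63.5 to 90.3% of the control in the 4 genotypes with pat1-1, and the PATH1 locus AT3G22270 at 77.9 to 93.6% in the 4 with path1-4. The highest of these, PAT1 in pat1-1path2-1 (90.3%) and PATH1 in path1-4path2-1 (93.6%), were not called (edgeR adjusted p = 0.258 and 0.344). The PATH1 libraries of path1-4path2-1 also overlapped the control, so the counts did not check these labels in these doubles. The PATH2 locus AT4G14990 was at 105 to 118% in the 4 with path2-1, so the counts did not check the path2-1 label. Leaf markers were present in every genotype, with a sum over 5 genes, from 21915 in a path2-1 library to 50050 in a pat1-1path2-1 library, in CPM (counts per 1000000, with library sizes scaled by TMM factors). The sum over 5 root markers was 26.1 to 62.4 CPM in the control and 101 to 136 in the triple combination. That sum was 60.1 to 88.9 CPM in pat1-1, 56.7 to 106 in pat1-1path1-4, and from 22.8 (path2-1) to 59.3 (pat1-1path2-1) in the other genotypes. RHD6, a root hair regulator, was at 0 in every genotype. Both root markers tested rose in the triple combination, PYK10 with a log2 fold change of 1.76 and NAI2 with 0.88. In pat1-1path1-4, 1 of the 2 was called higher, and in pat1-1 0 were. Both were also called higher where pat1-1 was added to path1-4 or path1-4path2-1, and where path1-4 was added to pat1-1path2-1. The part of any of these markers in the results below was not tested. The sum over 5 flower markers was 0.59 to 4.40 CPM. Both flower markers tested, AG and PI, were called higher in pat1-1 (log2 fold changes 1.17 and 2.44) and in pat1-1path1-4 (0.78 and 2.18), while in the triple combination PI was higher (2.66) and AG lower (-2.04). AG was also lower in pat1-1path2-1 (-0.81) and path1-4path2-1 (-0.97). In whole above-ground tissue, fewer cells of a type and less RNA per cell cannot be told apart.

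The members span a wide range of levels. Between genes, levels are compared as deposited TPM, which account for gene length. In the control, IAA2, widely used as an auxin reporter gene, was highest with 211, 166 and 198 TPM in the 3 libraries, and it was followed by IAA7 with a mean of 168, IAA16 with 157 and IAA9 with 114. The libraries of IAA2 and IAA7 overlapped, as did those of IAA7 and IAA16, while IAA9 lay below IAA16 and above IAA29 (83.3) in every library. These 4 members held 59.3% of the summed Aux/IAA TPM of the control. IAA8 (61.5 TPM) and GH3.5 (60.0), an enzyme that joins auxin and also acts on salicylic acid, came next after IAA29 and overlapped each other. Altogether 19 members were above 10 TPM, 7 were below 1, and the libraries of 13 of the 34 pairs of neighbours in the order did not overlap. The lowest member was IAA33, listed at 0, 0.0764 and 0.0758 TPM.

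**Figure D1:**
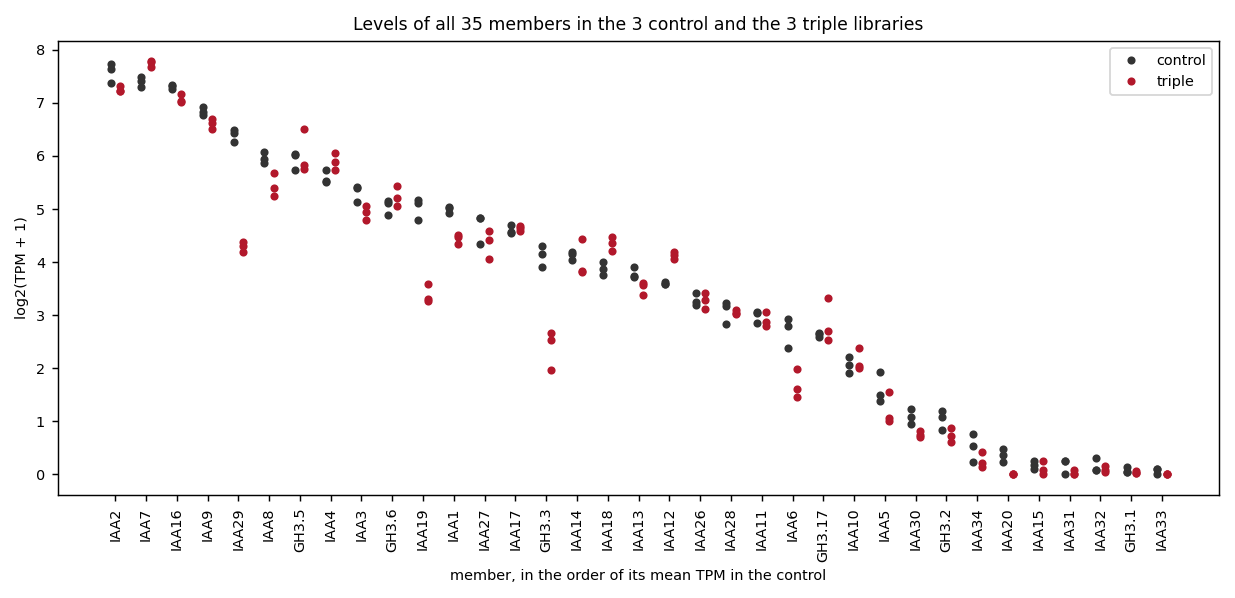
Levels of all 35 members, as log2 of TPM plus 1, in the 3 control (dark) and 3 triple combination (red) libraries, ordered by mean TPM in the control. Each point is 1 library. IAA29 (83.3 to 18.6 TPM on average), IAA19 (31.8 to 9.49) and GH3.3 (16.5 to 4.36) show the clearest separation, and most other members lie close together.

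The 6 members not tested were IAA15, IAA20, IAA31, IAA32, IAA33 and GH3.1. None of them exceeded 0.395 TPM or 12 counts in any library. IAA20, IAA31, IAA32 and IAA33, together with IAA30 and IAA34, are the Aux/IAA genes whose proteins lack the usual receptor-binding degron, so 2 of these 6 were tested and 22 of the other 23 Aux/IAA members. IAA20 had 14 counts over the 3 control libraries and 0 over the 3 triple combination libraries. The control was the highest genotype, and the others had from 2 (pat1-1path1-4) to 8 counts (path2-1 and pat1-1path2-1). With no filter on low counts, IAA20 was called in the triple combination (edgeR adjusted p = 0.00578).

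In the triple combination, 11 members fell and 3 rose, and 15 of the 29 tested were not called. A gene was called at an adjusted p below 0.05 in the edgeR quasi-likelihood test, with Benjamini-Hochberg adjustment over all 20346 genes tested. By this rule 45.4% of all genes were called in the triple combination, 22.8% higher and 22.6% lower, so the 14 of 29 members (48.3%) were close to that background. The direction was less even among the members: their median log2 fold change was -0.26 against 0.00 over all genes, and 20 of the 29 values were below 0. Without the 6 libraries of the doubles with path2-1, 14 members were again called. Beside these changes, 1 of the 5 leaf markers rose and 1 fell, RBCS1A by 0.48 and LHCB1.2 by -0.81 on the log2 scale.

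IAA29 (AT4G32280, chr4:15583332-15584903), an Aux/IAA gene known for its induction in shade, fell most. Its CPM was 73.4, 65.2 and 73.8 in the control and 16.8, 15.2 and 14.7 in the triple combination. All 3 triple libraries lay far below every library of every other genotype. The log2 fold change was -2.19 ± 0.13 (SE, n = 3 per genotype, edgeR adjusted p = 1.27e-10), which left 21.9% of the control level.

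GH3.3 (AT2G23170, chr2:9863855-9866562), an auxin-conjugating enzyme, had 22.8, 19.8 and 27.1 CPM in the control and 4.11, 7.11 and 6.78 in the triple combination. Its log2 fold change was -1.95 ± 0.21 (edgeR adjusted p = 3.31e-07). IAA19 (AT3G15540, chr3:5264001-5265695), known for its part in hypocotyl bending and growth, had 21.9, 18.1 and 24.0 CPM in the control and 7.36, 5.48 and 5.93 in the triple combination, a log2 fold change of -1.77 ± 0.17 (edgeR adjusted p = 5.26e-08). For both genes the triple libraries lay below those of every other genotype.

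The other falls were smaller. IAA6, a low-level member with 5.59 TPM in the control, fell by 1.33 ± 0.33 on the log2 scale. IAA1, a gene of the same subgroup as IAA2, had 17.8, 20.1 and 20.2 CPM in the control and 13.7, 11.5 and 13.3 in the triple combination, and its libraries did not overlap (log2 fold change -0.60, edgeR adjusted p = 0.000138). IAA3, known as SHY2 for its part in root meristem size, had 35.8, 31.0 and 38.3 CPM in the control and 28.97, 25.5 and 24.0 in the triple combination (log2 fold change -0.42). IAA3 shares 640 bases with AT1G04230 on the opposite strand, and since the strand setting of the counting is not given in the sources used here, reads of that stretch cannot be assigned to either gene. IAA2 had 184, 151 and 182 CPM in the control and 142, 126 and 134 in the triple combination (-0.36), again without overlap. IAA9 had 165, 162 and 156 CPM in the control and 127, 139 and 139 in the triple combination, also without overlap. IAA8, IAA13, IAA16 and IAA9 fell by 0.55, 0.31, 0.26 and 0.25 on the log2 scale. IAA16 was no longer called without triple library 2 (edgeR adjusted p = 0.0613), and IAA13 was lost without control library 1 or triple library 3 (adjusted p up to 0.0696).

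The 3 members that rose in the triple combination were IAA12, IAA18 and IAA7. IAA12, known as BODENLOS for its part in the embryo, had a log2 fold change of 0.53 ± 0.09 (edgeR adjusted p = 4.02e-05), IAA18 of 0.47 ± 0.10 and IAA7 of 0.32 ± 0.06. IAA13, the close relative of IAA12, fell. Among the GH3 members, only GH3.3 was called, and GH3.5, GH3.6, GH3.17 and GH3.2 had log2 fold changes of 0.12, 0.16, 0.28 and -0.68.

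**Figure D2:**
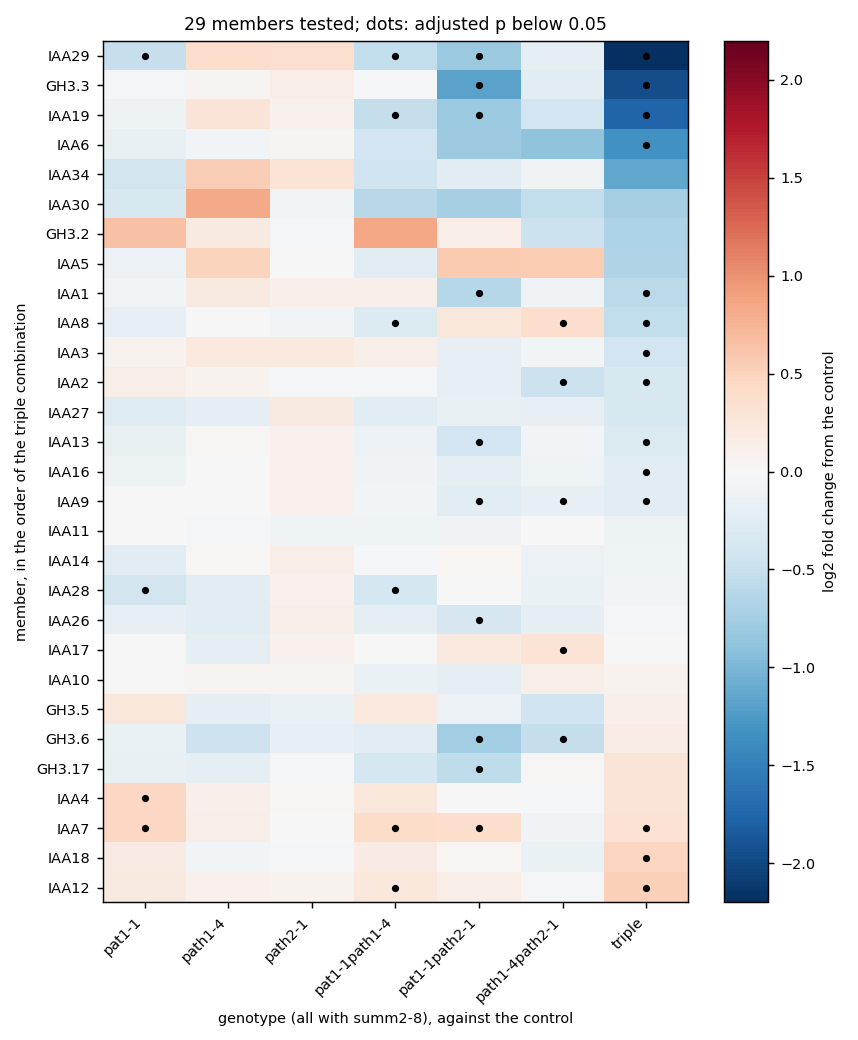
Log2 fold change from the control (colour, red higher and blue lower) of the 29 tested members in the 7 other genotypes, ordered by the value in the triple combination. A dot marks an adjusted p below 0.05. The path1-4 and path2-1 columns have no dot, and IAA29 and IAA7 have a dot in the 4 genotypes with pat1-1.

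Single mutations moved few members. All comparisons with the control share the same 3 control libraries. In pat1-1, 2 members rose and 2 fell, 13.8% of those tested against 22.9% of all genes (12.0% higher and 10.9% lower). IAA7 rose by 0.45 ± 0.06 and IAA4 by 0.45 ± 0.12 on the log2 scale, and IAA29 fell by 0.51 ± 0.13 (edgeR adjusted p = 7.49e-05, 0.0121 and 0.00659). IAA4 had 39.4, 40.5 and 48.0 CPM in the control and 50.1, 64.9 and 59.7 in pat1-1, so the groups lay close at their edges. The IAA4 call was lost without control library 2 or pat1-1 library 2 (adjusted p up to 0.0712), which left 2 members called in either case (4 without the doubles with path2-1), and the fall of IAA28, 0.40 on the log2 scale, was lost when any of 5 libraries was left out (adjusted p up to 0.178).

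In path1-4 and in path2-1, the edgeR test called 0 members, where it called 0.177% and 0.0197% of all genes. At an unadjusted p below 0.05 it found 4 of the 29 members in path1-4, against 10.49% of all genes, and 2 in path2-1, against 13.92%. DESeq2 called 0 members in both. The members' log2 fold changes ran from -0.45 (GH3.6) to 0.84 (IAA30) in path1-4 and from -0.18 (GH3.6) to 0.35 (IAA29) in path2-1. IAA29 had 79.1, 92.5 and 107 CPM in path1-4 and 93.6, 75.1 and 103 in path2-1, all above the control libraries, without a call.

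In the 3 double combinations the shares of members called were near or below those of all genes. In pat1-1path2-1, 1 member rose and 9 fell, 10 of 29 (34.5%) against 32.6% of all genes (15.9% higher and 16.7% lower). Of the 5 leaf markers, 2 rose and 1 fell there, CA1 by 0.82, RBCS1A by 0.52 and LHCB1.2 by -0.41 on the log2 scale. GH3.3 fell to 12.2, 9.58 and 8.88 CPM, below every library of the control and of the 3 single combinations (log2 fold change -1.17 ± 0.20, edgeR adjusted p = 0.000202). IAA19 had 10.3, 12.6 and 13.3 CPM, IAA29 had 38.0, 40.3 and 42.9, and IAA1 had 12.6, 11.9 and 13.2, and all lay below the control libraries (-0.82, -0.81 and -0.63). IAA1 was as low in this double as in the triple combination, whose libraries overlapped with it. GH3.6, an enzyme known as DFL1, had 42.8, 54.0 and 52.8 CPM in the control and 23.9, 30.3 and 34.0 here (-0.77 ± 0.12, edgeR adjusted p = 8.11e-05). IAA13, IAA26, IAA9 and GH3.17 fell by 0.43, 0.37, 0.25 and 0.56. The GH3.17 call was lost in 10 of the 24 runs that left out 1 library (adjusted p up to 0.163), and that of IAA26 without control library 2 or pat1-1path2-1 library 1 (up to 0.0999).

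In pat1-1path1-4, 2 members rose and 4 fell, 20.7% of those tested against 31.2% of all genes called (15.8% higher and 15.4% lower). IAA29 fell to 51.9, 47.6 and 45.9 CPM (-0.55), IAA19 to 15.7, 13.0 and 15.9 (-0.52), and IAA7 rose to 279, 272 and 297 (0.41). None of these overlapped the control. IAA12 (0.23), IAA8 (-0.31) and IAA28 (-0.39) were called as well. Their calls were lost in 17, 6 and 5 of the 24 runs that left out 1 library (adjusted p up to 0.180, 0.150 and 0.119). For IAA12 these included runs without libraries of genotypes outside the comparison. The IAA19 call was lost without control library 3 or pat1-1path1-4 library 2 (up to 0.0787). The count of 6 dropped to 2 without pat1-1path1-4 library 2 and to 3 without its library 3 or control library 2 or 3. Without the doubles with path2-1 it was 5, with IAA8 lost (adjusted p = 0.0707). GH3.3, with 22.2, 20.7 and 25.6 CPM, stayed within the range of the control libraries.

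In path1-4path2-1, 2 members rose and 3 fell, 17.2% of those tested against 19.5% of all genes called (9.18% higher and 10.3% lower). IAA9 had 149, 137 and 139 CPM, GH3.6 had 34.4, 37.3 and 32.8, and IAA2 131, 113 and 130, all below the control libraries. The log2 fold changes of GH3.6 and IAA2 were -0.52 ± 0.12 and -0.47 ± 0.09 (edgeR adjusted p = 0.00432 and 0.00133). IAA8, with 76.5, 91.1 and 84.4 CPM in the control, rose to 99.6, 117 and 112 here and fell to 68.8, 53.0 and 50.6 in the triple combination. It was the only member called in both directions against the control. The rise of IAA8 (0.38) was lost in 4 of the 24 runs that left out 1 library (adjusted p up to 0.0787), as was that of IAA17 (0.30, up to 0.105), and the fall of IAA9 (-0.18) was lost in 9 (up to 0.141). The count of 5 dropped to 2 without control library 1 or path1-4path2-1 library 2 or 3, and to 3 without control library 3.

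**Figure D3:**
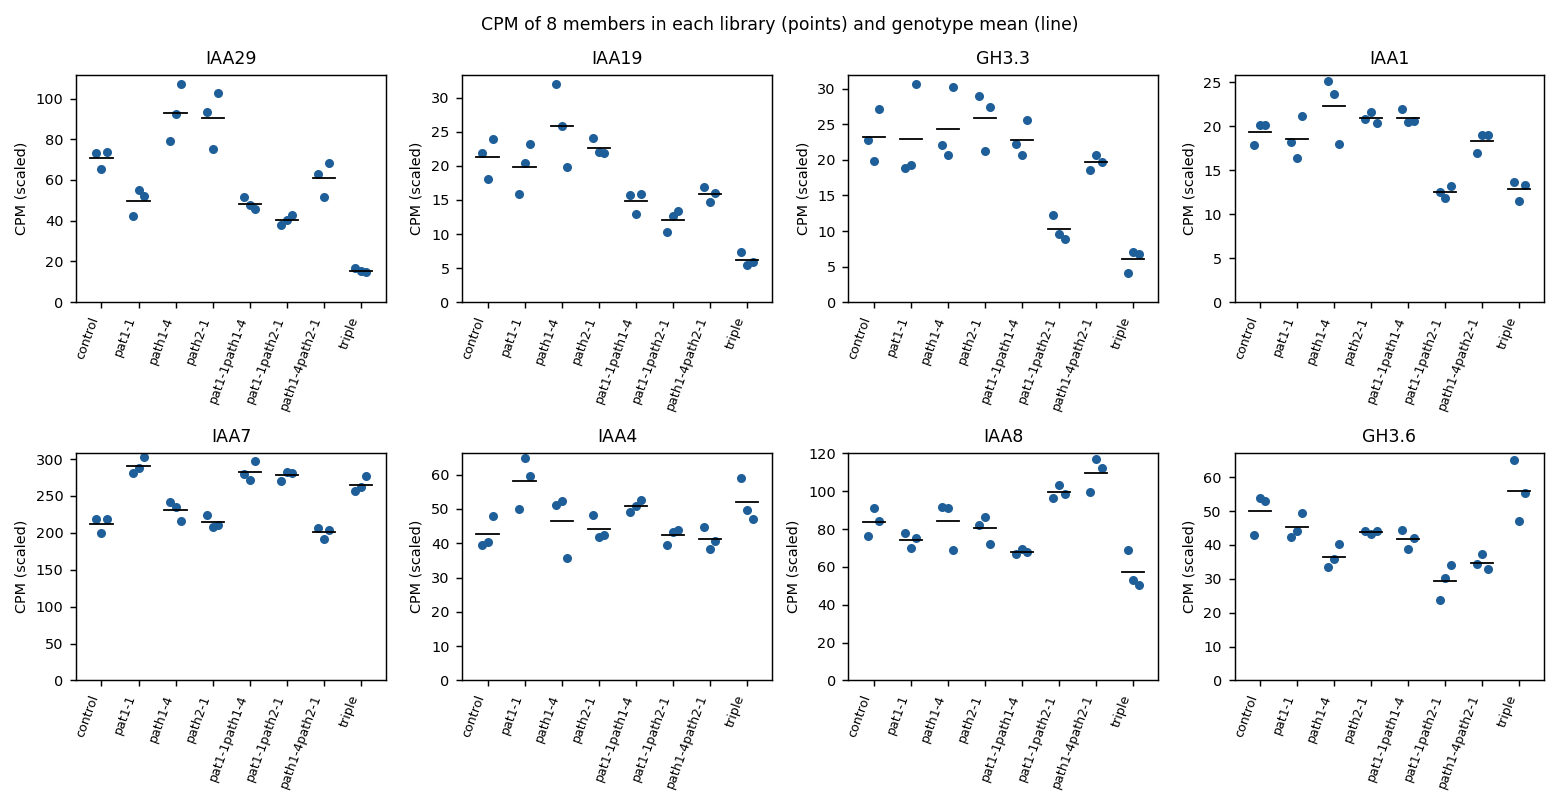
CPM of 8 members in each of the 24 libraries (points), with the genotype mean (line), by genotype. IAA29 and IAA19 are lowest in the triple combination, GH3.3 and IAA1 are low in pat1-1path2-1 and in the triple combination, IAA7 is higher in the 4 genotypes with pat1-1, and GH3.6 is lowest in pat1-1path2-1.

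Across the 7 comparisons with the control, 20 of the 29 tested members were called at least once, 5 higher only, 14 lower only and IAA8 in both directions. Over all genes tested, 66.2% were called at least once, 30.8% higher only and 31.2% lower only. No member was called in more than 4. The 9 never called were IAA5, IAA10, IAA11, IAA14, IAA27, IAA30, IAA34, GH3.2 and GH3.5. The triple combination had the lowest mean of the 8 genotypes for 14 of the 29 members and for 23.3% of all genes tested. The ratio of the highest to the lowest genotype mean was 1.54 at the median, 5.98 for IAA29, 4.32 for GH3.3 and 4.14 for IAA19.

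IAA7, known as AXR2 from a dominant auxin-resistant allele, was higher with pat1-1 in every background. The control libraries had 219, 199 and 219 CPM and the pat1-1 libraries 282, 288 and 303. Over all libraries it ran from 257 to 303 CPM in the 12 with pat1-1 and from 192 to 241 in the 12 without, with no overlap. Adding pat1-1 raised it by 0.29 ± 0.06 on the log2 scale in path1-4, 0.38 ± 0.06 in path2-1 and 0.40 ± 0.06 in path1-4path2-1 (edgeR adjusted p = 0.00215, 9.59e-05 and 2.01e-05). With only path1-4 and pat1-1path1-4 in the fit, the first of these was no longer called (log2 fold change 0.29, adjusted p = 0.0608). Its neighbour IAA2, head to head on chromosome 3 with 12510 bases and no protein-coding gene between them, did not share this pattern: the log2 fold change of IAA2 in pat1-1 was 0.13 and not called, and it fell in the triple combination.

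The number of members called when a mutation was added varied with the background, as did the share of all genes called. Both rose in the same order of backgrounds for pat1-1 and for path1-4. For path2-1 the member count was highest, 12 of 29 (41.4%), where the share of all genes was lowest (16.8%). Adding pat1-1 moved 4 members in path1-4 (against 22.1% of all genes called, and again 4 without the doubles with path2-1), 13 in path2-1 (against 38.6%) and 15 in path1-4path2-1 (against 49.1%). IAA29 fell in all of them, by 0.94, 1.16 and 1.98 on the log2 scale. Adding path2-1 moved 9 members in pat1-1 (against 21.7%), 8 in path1-4 (against 18.3%) and 12 in pat1-1path1-4 (against 16.8%, and 10 without the doubles with path2-1). Where pat1-1 was added to path2-1, 3 of the 5 leaf markers rose, with log2 fold changes of the 5 from -0.28 to 1.53. Where path1-4 was added to path2-1, 3 of the 5 rose as well, with values from -0.05 to 1.06. In path2-1 itself all 5 were below the control, with 0 called. In pat1-1path1-4 adding path2-1 lowered GH3.3 by 1.92. GH3.2, at about 1 TPM in the control, fell by 1.53, a call lost without pat1-1path1-4 library 3 (-1.10, adjusted p = 0.0731). Adding path1-4 moved 7 members in path2-1 (against 20.6%) and 10 in pat1-1path2-1 (against 35.8%). In pat1-1 adding path1-4 called 0 members in edgeR, against 0.256% of all genes, and 0 in DESeq2. At an unadjusted p below 0.05 the edgeR test found 1 member there, against 8.97% of all genes. In pat1-1path2-1 adding path1-4 raised GH3.6 by 0.93 ± 0.12 and GH3.17 by 0.85 ± 0.21 and lowered IAA29 by 1.38 ± 0.13. The GH3.17 value was 0.50 without triple library 1, and still called. GH3.6, low in both doubles with path2-1, had 65.1, 47.2 and 55.2 CPM in the triple combination and overlapped the control there. Single libraries moved some of these counts: adding path1-4 to path2-1 gave 4 without path2-1 library 1 or path1-4path2-1 library 2 or 3. Adding path2-1 gave 5 in pat1-1 without pat1-1 library 2, 5 in path1-4 without path1-4path2-1 library 2 or 3, and 6 in pat1-1path1-4 without pat1-1path1-4 library 3.

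The differences between effects were tested directly. For pat1-1 with path2-1, 7 members departed from the sum of the 2 single effects on the log2 scale, 1 higher and 6 lower, 24.1% of those tested against 14.7% of all genes (6.97% higher and 7.77% lower). In the same contrast 3 of the 5 leaf markers were called higher, with a median of 0.68 over the 5, and 1 of the 2 flower markers tested was called lower. Adding pat1-1 changed GH3.3 by -0.02 alone and by -1.32 in path2-1, a difference of -1.30 ± 0.28 (edgeR adjusted p = 0.0047). IAA1 departed by -0.68 ± 0.15, IAA19 by -0.81 ± 0.22, IAA29 by -0.65 ± 0.18, IAA3 by -0.48 ± 0.14 and IAA9 by -0.35 ± 0.09, and IAA8 by 0.48 ± 0.16. IAA9 had 157, 161 and 166 CPM in pat1-1, 167, 161 and 189 in path2-1, and 129.8, 139.6 and 137 in the double, where it lay below every control library. The calls of GH3.3, IAA1 and IAA9 held without any single library, while those of IAA3, IAA8, IAA19 and IAA29 were lost when certain single libraries were left out (adjusted p up to 0.0934, 0.111, 0.0691 and 0.0593). The number of calls was 3 without control library 2 or pat1-1path2-1 library 1, and 4 without pat1-1 library 2 or 3 or path2-1 library 3.

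For path1-4 with path2-1, 4 members departed, all lower, against 8.23% of all genes (3.77% higher and 4.45% lower). Of the 5 leaf markers, 1 was called higher in that contrast, with a median of 0.35 over the 5. IAA29 departed by -0.95 ± 0.17 (edgeR adjusted p = 0.00278), going from 0.39 for path1-4 alone to -0.56 in path2-1. IAA19 (-0.79), IAA2 (-0.50) and IAA3 (-0.49) were called as well. With only the compared genotypes in the fit, IAA29 alone was called, and the count was likewise 1 without control library 2, path2-1 library 1 or 3, or path1-4path2-1 library 2. It was 2 without path1-4 library 2 or path1-4path2-1 library 3. For pat1-1 with path1-4, the edgeR test called 0 members against 0.0442% of all genes, and DESeq2 called 0. At an unadjusted edgeR p below 0.05 there were 3 of the 29 members, against 6.25% of all genes.

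The triple combination departed from the sum of the 3 single effects for 6 members, 20.7% of those tested against 6.61% of all genes. Of the 6, 5 were lower, a direction called for 3.49% of all genes. IAA29 had single effects of -0.51, 0.39 and 0.35, which sum to 0.24, and -2.19 in the triple combination, a departure of -2.42 ± 0.26 (edgeR adjusted p = 2.91e-05). GH3.3 departed by -2.15 ± 0.41 and IAA19 by -2.04 ± 0.32 (edgeR adjusted p = 0.00419 and 0.00121), and both had no call in any single combination. IAA3 and IAA1 departed by -0.94 and -0.84. GH3.6 went the other way, with single effects that sum to -0.77 and a triple effect of 0.16, a departure of 0.94 ± 0.24 (edgeR adjusted p = 0.023). Neither its single effects nor its triple effect was called against the control. Without control library 2 the count was 3, with IAA1, IAA3 and GH3.6 lost (adjusted p up to 0.0633, 0.0651 and 0.110).

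**Figure D4:**
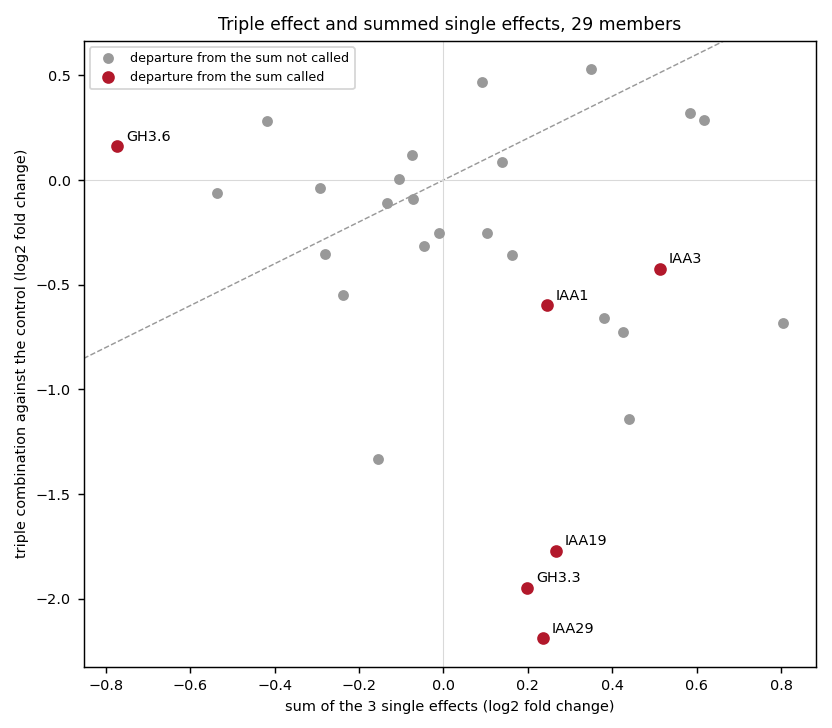
Log2 fold change of the triple combination from the control against the sum of the log2 fold changes of the 3 single combinations, for the 29 tested members, with the line of equality dashed. Red points are the 6 members whose departure was called. IAA29, GH3.3 and IAA19 lie near -2 on the vertical axis with sums of 0.24, 0.20 and 0.27, and GH3.6 lies above the line.

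Other genes of the pathway, and further members of its gene families, are given for the triple combination, beside the 45.4% of all genes called there. Of the 6 TIR1/AFB receptors, 1 rose and 2 fell: TIR1 by 0.36, AFB1 by -0.53 and AFB4 by -0.44 (edgeR adjusted p = 0.00464, 0.000294 and 0.000112). Of the 5 TOPLESS family corepressors, 0 rose and 3 fell, TPR3 by 0.65, TPR1 by 0.61 and TPR2 by 0.20 on the log2 scale. Of the 15 ARFs tested, 3 rose and 9 fell, with a median log2 fold change of -0.30 against 0.00 over all genes. ARF11 (-0.92), ARF1 (-0.35), ARF6 (-0.41) and ARF18 (-0.47) had the smallest adjusted p, and ARF8, ARF9 and ARF10 were the ones that rose.

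In a list of 8 genes taken for methylation, oxidation or glycosylation of auxin or its release from conjugates, 1 rose and 2 fell. The substrates of the listed enzymes were not measured here, and not all need be auxin or its conjugates. IAMT1, which methylates auxin, fell by 1.55 ± 0.19 on the log2 scale (edgeR adjusted p = 1.47e-06), ILL6, an amidohydrolase gene, fell by 0.81, and AT1G14130, an oxidase gene, rose by 0.39. Of 4 other GH3 genes tested, GH3.10 fell by 0.54 and the rest were not called. Of 8 other auxin-induced genes tested, 1 rose and 3 fell. The kinase gene PID fell by 1.30, the growth regulator gene ARGOS by 1.22 and the homeobox gene HAT2 by 0.91 (edgeR adjusted p = 3.8e-06, 7.99e-05 and 8.76e-07), and SAUR16 rose by 0.495 (adjusted p = 0.0136).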

How the data were processed

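Per the labels, 1 µg of total RNA from each above-ground sample went into libraries for the BGISEQ-500. STAR 2.5.1b and the build TAIR10 are named in the submitters' processing notes. The sources used here do not give the counting tool, the annotation or the strand setting. The authors deposited whole-number counts per gene and TPM, both for 37336 genes in 24 libraries. The deposited TPM were checked against the counts: their ratio was constant within 0.1% for 26755 genes. Columns were assigned by the numbers in the labels. Where the labels call libraries biological replicates without naming plants, p-values measure the spread between those libraries.

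Counts were tested with edgeR 4.0.16 in R 4.3.3 (filterByExpr defaults, which kept 20346 genes, TMM factors, a quasi-likelihood F test, 1 term per genotype, all 24 libraries, two-sided) in 20 contrasts. Within a contrast, Benjamini-Hochberg adjustment ran over all genes tested, and a gene was called below 0.05. SE is the size of the log2 fold change over the square root of F. CPM use the TMM-scaled library sizes. The biological coefficient of variation was 10.9%. The test was tried on simulated counts in which few genes changed and the rest kept the control mean in every genotype. These data differ from that setting, so no result here rests on the trial. Alternatives were RLE factors, DESeq2 1.42.0, no filter on low counts, only the compared genotypes, leaving out the doubles with path2-1, leaving out organelle genes, removing trends with length and GC, and leaving out each library.

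Values per library are given for members called in the triple combination and in at least 2 other comparisons with the control, the 3 largest called in each other comparison, members called in an interaction, and the highest and lowest in TPM. Members and lists were chosen with earlier results of these data known. Promoters were read from the TAIR10.1 genome, and no coordinates come from the deposited tables. Protein sequences were not used here.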

Additional observations from a re-analysis of the deposited data

Results flagged for a closer look

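Results in which the effects of the mutations did not add up on the log2 scale concern 9 members in 17 instances. Each was tested directly as a contrast of the genotype terms of the edgeR model, adjusted over all genes. The pairwise contrasts ask whether the effect of a mutation differed between backgrounds. The triple contrast takes in every departure from the sum of the single effects together. For pat1-1 with path2-1 the log2 differences were -1.30 for GH3.3, -0.81 for IAA19, -0.68 for IAA1, -0.65 for IAA29, -0.48 for IAA3, -0.35 for IAA9 and 0.48 for IAA8. For path1-4 with path2-1 they were -0.95 for IAA29, -0.79 for IAA19, -0.50 for IAA2 and -0.49 for IAA3. For the triple combination against the sum of the single effects they were -2.42 for IAA29, -2.15 for GH3.3, -2.04 for IAA19, -0.94 for IAA3, -0.84 for IAA1 and 0.94 for GH3.6. IAA29, IAA19 and IAA3 appear in each of these tests, which share the control and path2-1 libraries and so are not independent. The 6 libraries of the doubles with path2-1, which these pairwise tests need, stand apart from the others on the second principal component, and the part of this in the pairwise values was not tested. The triple departures do not use these libraries except to estimate the spread, and without them the same number of members, 6, was called.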

How the results depend on the processing

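Of 134 calls of a member in a contrast, 84 held under every alternative and 50 were lost under at least 1, and no log2 fold change reversed. Calls lost numbered 2 with RLE factors, 2 with DESeq2, 9 with no filter on low counts, 21 with only the compared genotypes, 9 with length and GC trends removed, 1 without organelle genes and 3 of 46 without the 2 doubles with path2-1. Only the compared genotypes in the fit left 1 member called in the interaction of path1-4 with path2-1, against 4. With the length and GC trends removed, the interaction of pat1-1 with path2-1 was lost for IAA3 and IAA29 (adjusted p = 0.0705 and 0.053).

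Leaving out 1 library at a time gave these numbers of members called against the control: 2 to 4 in pat1-1, 2 to 6 in pat1-1path1-4, 8 to 11 in pat1-1path2-1, 2 to 7 in path1-4path2-1 and 13 to 16 in the triple combination. Adding pat1-1 gave 4 to 6 in path1-4, 11 to 14 in path2-1 and 12 to 15 in path1-4path2-1. Adding path1-4 gave 4 to 10 in path2-1 and 8 to 11 in pat1-1path2-1. Adding path2-1 gave 5 to 11 in pat1-1, 5 to 9 in path1-4 and 6 to 13 in pat1-1path1-4. The interactions gave 3 to 9 for pat1-1 with path2-1 and 1 to 6 for path1-4 with path2-1, and the triple departure 3 to 7. The counts of 0 stayed 0 in these runs. No paired analysis was possible because the libraries are numbered 1 to 24 and the genotypes share no number.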

Other observations

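The summed TPM of the 29 Aux/IAA members was 1108, 1009 and 1070 in the control and 941, 912 and 883 in the triple combination, and the 3 libraries of each did not overlap. The mean sum was highest in path2-1 (1187, 1115 and 1282), which overlapped path1-4 and pat1-1. The summed TPM of the 6 GH3 members was 116, 107 and 122 in the control and 144, 96.8 and 102 in the triple combination, which overlapped. The mean GH3 sum was lowest in pat1-1path2-1 (78.3, 84.2 and 92.5), which overlapped path1-4 and path1-4path2-1.

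Besides IAA2 and IAA7, the genome places IAA3 and IAA17 head to head on chromosome 1 with 6388 bases between them, and IAA14 and IAA1 on chromosome 4 with 10732. In the triple combination the log2 fold changes were -0.42 for IAA3 and 0.00 for IAA17, and -0.60 for IAA1 and -0.09 for IAA14. IAA17 and IAA14 were not called. In each of the 3 pairs 1 gene fell in the triple combination, and its partner rose (IAA7) or was not called.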
